A study of Mus musculus with 4 samples.

Results

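Whole wild-type mouse embryos at embryonic day 8.5 (E8.5) were compared with whole wild-type embryos at embryonic day 7.5 (E7.5), to describe which lineages and pathways gained or lost transcripts over this day of normal development. The comparison used 2 of the 4 libraries of the study, with 1 library per stage, chosen by their stage and genotype labels. Embryos of both groups were of the ICR strain and untreated, and carried no allele other than wild type. The other 2 libraries, from E8.5 embryos lacking Ddx6, entered the normalization alone. Each library held poly(A) RNA of whole embryos, and the number of wild-type embryos in a library was not given in the sources used here. According to the study's methods, the genotype of E8.5 embryos was read from yolk sac or other extraembryonic tissue. Part of the extraembryonic tissue may thus have been taken away before RNA was made. The methods do not state this step for the E7.5 embryos, so the extraembryonic tissue left in the libraries may differ with the stage.

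In the mouse, E7.5 is the time of gastrulation. Epiblast cells, the pluripotent source of the body, pass through the primitive streak and leave it as mesoderm or endoderm, while the extraembryonic ectoderm and the visceral endoderm lie beside them. Over the next day the neural plate folds, the first somites form, the heart tube assembles and begins to contract, and primitive red cells arise in the yolk sac. The body axis lengthens from the tail end, where Hox genes are switched on one after another along their clusters.

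The libraries held 12095555 reads (E7.5) and 12562640 reads (E8.5) in genes, and 16766 and 16810 genes had a read. Reads were scaled to a common library size as CPM, and the log2 change is the E8.5 value minus the E7.5 value. Of 24421 genes in the table, 13996 had at least 10 reads in either wild-type library and were kept. A gene is called higher when its log2 change is above 1 and lower when it is below -1. With 1 library per stage there is no test and no replicate error, and the stage and the library cannot be told apart. Ranges in parentheses are exact Clopper-Pearson 95% intervals of the log2 ratio, which cover counting error only. In whole embryos, fewer cells of a type and less RNA per cell cannot be told apart either.

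By this rule 1720 genes (12.3%) were higher and 1062 (7.59%) were lower at E8.5, and the median of all genes was -0.01. Counts of list members below are to be read beside these shares. Where the whole counting interval had to lie past the threshold, 939 genes (6.71%) were higher and 476 (3.4%) were lower. Most calls were moderate, with 1221 higher and 777 lower genes between 1 and 2 on the log2 scale. Above 3 lay 162 genes, and below -3 lay 91. The plot of all genes shows the embryonic globins, contractile and axial genes at the upper edge, and genes of the extraembryonic ectoderm and the epiblast at the lower edge.

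**Figure D1:**
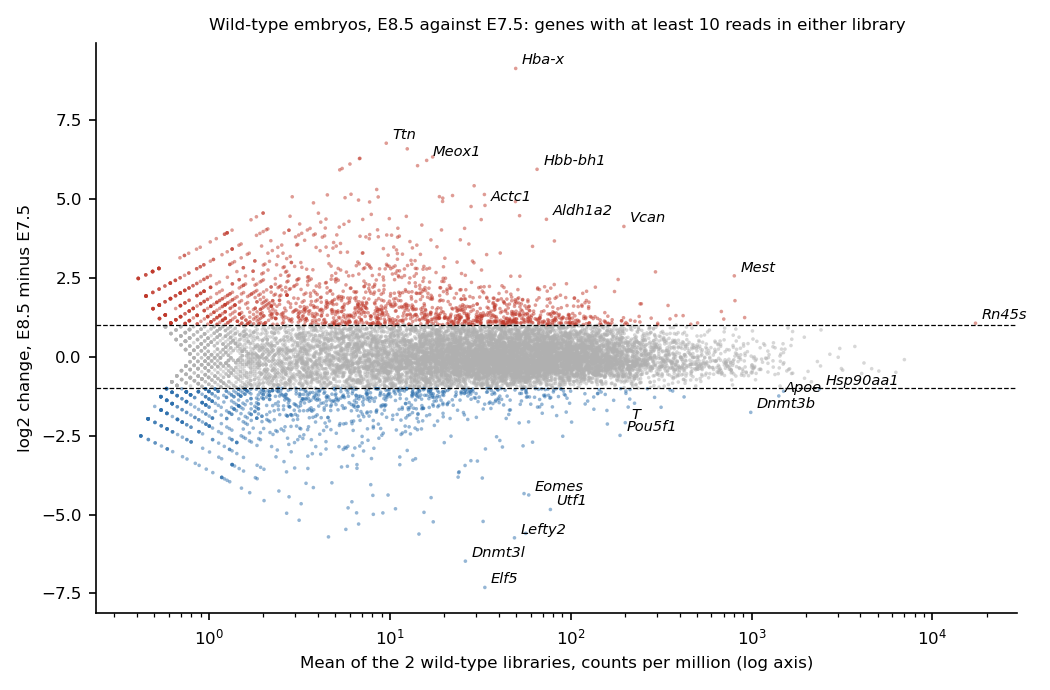
Log2 change from E7.5 to E8.5 (vertical axis) against the mean of the 2 wild-type libraries in CPM (horizontal log axis), 1 point per gene. Red points are the 1720 genes above 1, blue points the 1062 genes below -1 and grey points the rest, with dashed lines at the thresholds, and named genes reach from 9.12 for Hba-x to -7.31 for Elf5.

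The libraries also differed by features of the transcripts. Over 5 equal groups of genes by transcript length the median log2 change went from -0.35 in the shortest to 0.50 in the longest, and over 5 groups by GC content from 0.45 in the lowest to -0.36 in the highest. Some lists are therefore also given after the median of genes of like length and GC content was taken away, which was chosen after the data were seen. Of 13490 genes with both values, 1358 were then higher and 856 lower, and adjusted list counts are to be read beside these. The ribosomal RNA precursor Rn45s had 133682 reads at E7.5 and 287385 at E8.5. The Y-linked genes Ddx3y (340 and 744 reads, 1.08), Uty (162 and 417, 1.31), Kdm5d (240 and 466, 0.90) and Eif2s3y (358 and 552, 0.57) had reads in both libraries, so both held male embryos. Xist, transcribed from the inactive X chromosome of females, had 46 and 17 reads (-1.37). After the adjustment none of these 5 genes was higher and 1 was lower, with a median of 0.29. The mix of sexes may thus differ between the libraries. The part of these differences in the results below was not tested.

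**Figure D2:**
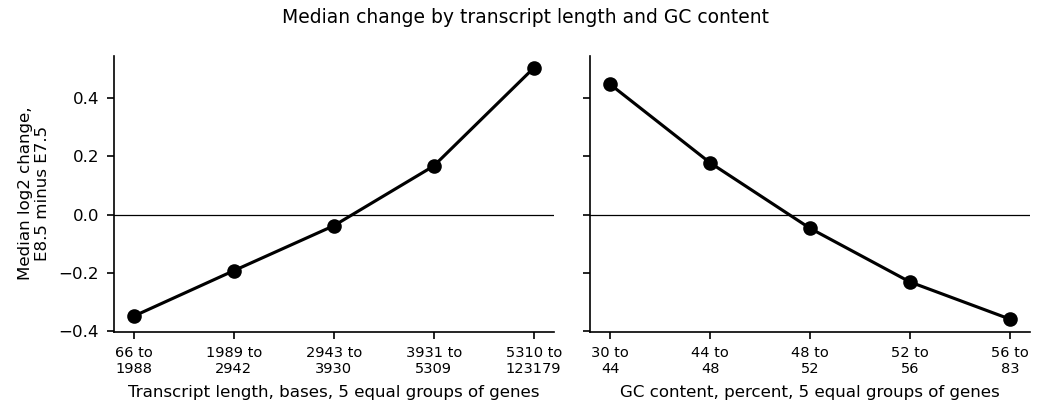
Median log2 change (vertical axis) of the kept genes in 5 equal groups by transcript length in bases (left) and by GC content in percent (right). The medians climb from -0.35 to 0.50 with length and descend from 0.45 to -0.36 with GC content.

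The embryonic globin gene Hba-x showed the highest change of any gene with at least 100 reads. Hba-x (chromosome 11, 32276400 to 32278116, plus strand, GRCm38), the embryonic alpha-type globin, had 0 reads at E7.5 and 1221 at E8.5, at least 394-fold more against a floor of 3 reads. Hbb-bh1 (chromosome 7, 103841637 to 103843164, minus strand, GRCm38), an embryonic beta-type globin, had 23 and 1579 reads, a log2 change of 5.93 (5.46 to 6.72). Hbb-y, the other embryonic beta-type gene, had 0 and 25 reads. On the RPKM scale, which is CPM per kilobase of exon, Hbb-bh1 stood at 210 and Hba-x at 106 at E8.5. The annotated exon lengths used were 613 and 938 bases, and in CPM these genes stood at 128 and 99.3. These values compare single genes and do not give the total of alpha-type or beta-type globin. The adult genes Hba-a1, Hba-a2, Hbb-b1 and Hbb-b2 were listed at 0 in both libraries. Reads shared between near-identical globin copies may have been dropped in counting, so these zeros do not show that the adult genes were silent.

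The promoter of Hbb-y is shown as that of an embryonic globin gene read at E8.5 alone, with any GATAA, the core of the sequence bound by GATA factors, in capitals on either strand. The 250 bases before the RefSeq start site (GRCm38.p6) lie at chr7:103853208-103853457 on the minus strand and hold 1 match. Hbb-bh1 was not matched to a promoter. Among all 32851 promoter windows of the same length 22.6% hold GATAA on either strand, and among 14 windows of kept erythroid genes 8 do. A match describes these letters and is not a bound site.
Hbb-y: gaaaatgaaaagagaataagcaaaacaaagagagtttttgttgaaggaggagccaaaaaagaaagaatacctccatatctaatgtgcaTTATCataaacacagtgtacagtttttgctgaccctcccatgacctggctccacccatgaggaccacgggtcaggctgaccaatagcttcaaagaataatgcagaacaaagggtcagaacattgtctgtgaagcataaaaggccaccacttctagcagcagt

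The rest of the erythroid program did not move as one. Of 19 kept genes on the erythroid list 12 were higher and 4 lower, with a median of 1.72. Genes of the maturing red cell were among the higher ones. The membrane skeleton gene Ank1 had 7 and 72 reads (2.98) and Klf1, a transcription factor that activates globin genes, 12 and 76 (2.42). Gata1, which encodes the main transcription factor of the red lineage, went the other way, from 205 to 65 reads with a log2 change of -1.67 (-2.13 to -1.30). Its partner Gfi1b had 66 and 31 reads (-1.08), and Alas2, the first enzyme of heme synthesis in red cells, 133 and 67 (-1.01). The remaining lower gene was Rhd, a membrane protein gene of the red cell (26 and 7, -1.66, -3.39 to -0.70), so membrane genes did not all rise. Among 13 heme synthesis genes none was higher and Alas2 was the 1 lower gene, with a median of -0.23. In this pair of libraries globin reads were thus far more abundant at E8.5 while reads of Gata1 and Alas2 were fewer.

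Most blood vessel genes had more reads at E8.5, and the values were high for several markers of established endothelium. Of 24 genes on the hemangioblast and endothelium list 13 were higher and none lower, with a median of 1.29. Sox18 had 12 and 200 reads (3.79). The angiopoietin receptor gene Tek had 73 and 629 reads (3.02), and Cdh5, which encodes the endothelial cadherin, 98 and 689 (2.74). Kdr, the VEGF receptor gene that also marks early mesoderm, had 669 and 2259 reads (1.71). Other vessel genes stayed between the thresholds, such as Egfl7 (0.05), Ramp2 (0.40), Eng (0.50), Flt1 (0.76) and Sox17 (-0.79). So did the early regulators Tal1 (0.22), Etv2 (0.65) and Lmo2 (0.65). Runx1, the regulator of definitive blood, had 407 and 210 reads (-0.99). Macrophage and platelet genes were near the limit of detection. Only 4 of 16 passed the read minimum, of which Itga2b (41 and 134 reads) was higher and Lyz2 (26 and 4) and Csf1r (36 and 15) were lower.

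Contractile genes of the heart formed one of the clearest gains. Of 27 kept genes 20 were higher and none was lower, with a median of 2.71. Ttn, which encodes the giant spring protein of the sarcomere, had 0 reads at E7.5 and 235 at E8.5 (at least 75.8-fold), and the myosin-binding protein gene Mybpc3 0 and 168 (at least 54.2-fold). Tnnt2, the cardiac troponin T gene, had 3 and 347 reads, a log2 change of 6.04 (5.25 to 9.09). These genes were at or near 0 reads at E7.5. The myosin heavy chain genes Myh7 (14 and 705 reads, 5.41) and Myh6 (77 and 638, 2.97) and the actin genes Actc1 (26 and 799, 4.79) and Acta2 (52 and 1229, 4.46) started from a low level. Others were already abundant, such as the calcium pump gene Atp2a2 with 5989 and 7555 reads (0.29) and Tpm1 with 2410 and 4571 (0.88). Genes of the more mature myocardium were hardly read. Nppa, the natriuretic peptide gene of the working chambers, had 1 and 2 reads, the ventricular light chain gene Myl2 8 and 15, and Pln, the brake of the calcium pump, 0 in both libraries.

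In the windows before the RefSeq starts of Actc1 and Myl7, an atrial myosin light chain gene (168 and 538 reads, 1.62), lies a CArG box, the sequence that serum response factor recognizes in many muscle genes. The windows below end at the RefSeq start sites (GRCm38.p6), at chr2:114052876-114053125 on the minus strand for Actc1 and at chr11:5898783-5899032 on the minus strand for Myl7, and capitals mark the box. The GENCODE span of Actc1 reaches farther, to 114053548, so its window is upstream of the RefSeq start but lies within that span. Among windows of kept contractile genes 8 of 38 hold a CArG box on either strand, against 1.47% of all 32851 windows. The 2 windows were chosen for the match, and the share is a description.
Actc1: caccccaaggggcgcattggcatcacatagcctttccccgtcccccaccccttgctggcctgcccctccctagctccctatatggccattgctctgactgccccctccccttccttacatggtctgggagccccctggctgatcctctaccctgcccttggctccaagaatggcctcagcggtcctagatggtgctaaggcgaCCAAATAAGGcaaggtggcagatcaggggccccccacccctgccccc
Myl7: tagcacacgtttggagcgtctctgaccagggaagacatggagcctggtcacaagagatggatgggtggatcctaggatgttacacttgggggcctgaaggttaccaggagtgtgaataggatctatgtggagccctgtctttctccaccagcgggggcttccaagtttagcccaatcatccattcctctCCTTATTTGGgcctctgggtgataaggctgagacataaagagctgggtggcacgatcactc

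Among 16 cardiac transcription factor genes 9 were higher and 2 lower, with a median of 1.48. Smyd1 (2 and 148 reads, 5.14) and Myocd (4 and 208, 5.05) drive the muscle program, and Nkx2-5 (6 and 188, 4.50) and Tbx5 (5 and 124, 4.10) specify heart cells. All 4 had fewer than 10 reads at E7.5. Regulators that also act in other mesoderm were well read at both stages, with Gata4 at 1677 and 1419 (-0.29) and Hand1 at 2570 and 2229 (-0.25). Irx4, known for its part in the ventricle, went from 156 to 38 reads (-2.02) and Hopx, a partner of the cardiac factors, from 233 to 77 (-1.62), so both were lower.

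Somite genes appeared from a low base. Of 12 kept genes 8 were higher and none lower, with a median of 1.91. Meox1, needed for somite patterning, had 3 and 390 reads, a log2 change of 6.21 (5.42 to 9.26), and Aldh1a2, the main enzyme of retinoic acid synthesis at this time, 80 and 1723 (4.35, 4.06 to 4.72). Pax3, of the dorsal somite and neural tube, had 9 and 159 reads (3.81). Markers of later somite derivatives were mixed. Several were barely read, with Pax1 at 1 and 1, the muscle determination gene Myf5 at 0 and 3 and Nkx3-2 at 0 in both. Pax9, like Pax1 a gene of the ventral somite and also of the pharynx, was higher (3 and 99, 4.26). The segmentation genes of the presomitic mesoderm had no common direction, with 2 of 13 higher, 2 lower and a median of 0.00. Msgn1 was higher (38 and 127 reads, 1.64), while Mesp2 (69 and 11, -2.48) and the Notch ligand gene Dll3 (624 and 236, -1.44) were lower.

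In lateral plate and intermediate mesoderm 8 of 17 genes were higher and 1 lower, with a median of 0.98. Tbx4, a gene of the allantois and hindlimb field, had 20 and 799 reads (5.13). Genes of the early kidney field, Osr1 (11 and 132, 3.31) and Pax2 (17 and 352, 4.16), were higher too, though Pax2 is also a gene of the midbrain. Wt1, a gene of coelomic epithelium and kidney, was lower (120 and 40, -1.58).

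The axis showed both ends of the process. Of 13 kept tail bud genes 7 were higher and none lower, with a median of 1.06. The brachyury gene T was placed on the node and streak lists and not on this one, and it was lower (3864 and 934 reads, -2.09). Cdx1 had 118 and 1391 reads (3.49) and Cdx4 27 and 387 (3.69), while their relative Cdx2, which is also a trophoblast gene, had 990 and 1326 (0.37). Hes3, a Notch pathway repressor gene of the neural plate and tail region, went from 1 to 306 reads (6.58, 5.72 to 13.52). Node and notochord genes leaned the other way, with 2 of 14 higher, 4 lower and a median of -0.87. After the length and GC adjustment 4 were higher and 4 lower, with a median of -0.51. Foxj1, the regulator of motile cilia in the node, had 661 and 67 reads (-3.31) and Chrd, an organizer BMP antagonist, 345 and 77 (-2.18). Shh, the signal of the notochord and floor plate, went from 10 to 200 (4.01, 3.37 to 5.36).

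Hox transcripts accumulated broadly. Of 33 kept Hox genes 26 were higher and 1 lower, with a median of 2.54. The change differed with the position in the cluster. In paralog groups 1 and 2, which were already read at E7.5 with 927 reads in all, 3 of 5 genes were higher (median 1.25), and Hoxb1 had 493 and 567 reads (0.15). In groups 3 and 4 all 7 genes (median 3.73) and in groups 5 to 8 all 10 kept genes (median 3.77) were higher. Summed reads there went from 122 to 1181 and from 111 to 1234. In groups 9 to 13, 6 of 11 kept genes were higher and 1 was lower (median 1.21). Hoxb9 (11 and 451 reads, 5.06) was far above the threshold, whereas Hoxa10 (93 and 160, 0.72) and Hoxa11 (66 and 72, 0.08) were already read at E7.5 and stayed between the thresholds. Hoxd11 was the lower gene, with 36 and 6 reads (-2.26, -4.17 to -1.37). Hoxa10 is on the list of maternal decidua genes as well, since the pregnant uterus expresses it.

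**Figure D3:**
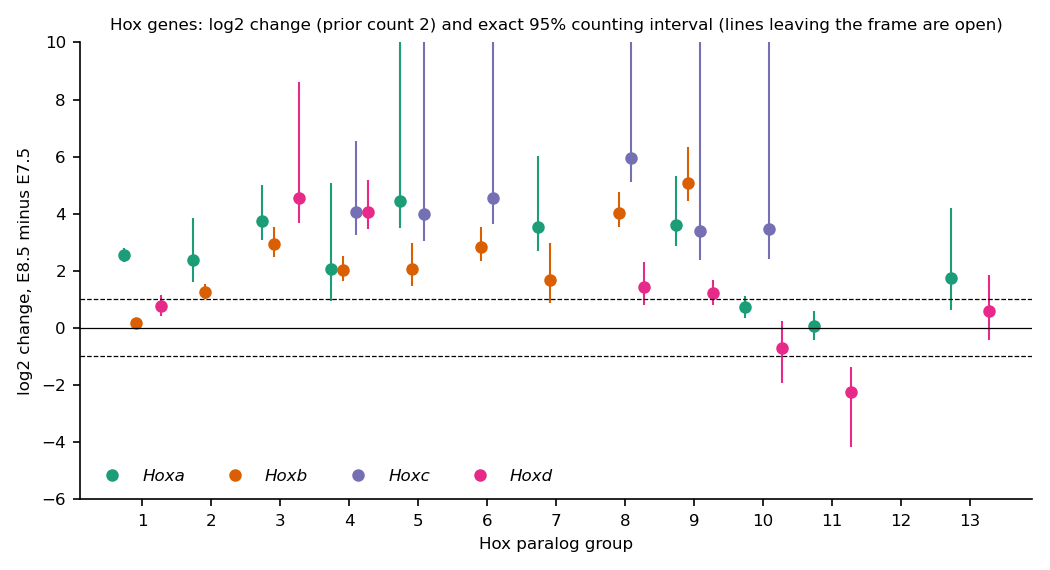
Log2 change of each kept Hox gene (vertical axis, points) by paralog group (horizontal axis) and cluster (color), with exact 95% counting intervals as lines, which are open where a library had 0 reads. Groups 3 to 8 lie above 1 throughout, and Hoxd11 at -2.26 lies below -1.

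Many, but not all, genes of the neural plate were higher. Of 21 kept neural plate and progenitor genes 11 were higher and 1 lower, with a median of 1.07. Sox1, the earliest specific marker of neural ectoderm, had 13 and 533 reads (5.10, 4.52 to 6.23), and Pax6 10 and 180 (3.86). Pou3f1, a gene of the late epiblast and early neural plate, was the lower one, with 924 and 359 reads (-1.41). The other 9 were between the thresholds, among them Zic2 (1338 and 778, -0.83), Nes (692 and 776, 0.12) and Sox3 (490 and 731, 0.53). In the forebrain and midbrain 15 of 19 kept genes were higher and none lower. The median was 2.57, or 2.11 with genes at 0 reads set to the floor. Fezf1, a forebrain regulator, had 0 and 167 reads (at least 53.9-fold) and Wnt1, a signal of the midbrain, 0 and 71 (at least 22.9-fold). En1, which marks the boundary of midbrain and hindbrain, had 25 and 190 (2.78). Otx2, already on at gastrulation, was between the thresholds with 828 and 703 reads (-0.28).

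Hindbrain genes were higher in 9 of 14 cases and lower in 1, with a median of 1.22. Cyp26c1, an enzyme that breaks down retinoic acid, had 4 and 186 reads (4.89), and Egr2, which marks 2 segments of the hindbrain, 7 and 35 (1.98). Fgf3 was lower (387 and 166, -1.26). Of 19 neural crest and plate border genes 13 were higher and none lower, with a median of 1.46. Pax7 had 6 and 90 reads (3.46), Snai2 35 and 260 (2.77) and Foxd3 34 and 102 (1.48). Sox10, the gene of migrating crest, reached no more than 14 reads.

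Neuronal genes remained low and mixed. Of 16 kept genes 6 were higher and 2 lower, with a median of 0.65, and most had fewer than 100 reads at both stages. Isl1, also a gene of the second heart field, had 45 and 271 reads (2.49). Neurog1 (31 and 1, -3.42) and the RNA-binding protein gene Elavl3 (353 and 87, -2.04) were lower at E8.5. Surface ectoderm and placode genes were split, with 6 of 20 kept genes higher, 6 lower and a median of -0.30. Among the higher ones was the placode regulator Eya1 (19 and 239, 3.47). The lower ones were the epithelial genes Cldn4, Cldn6, Cldn7, Krt19, Cdh1 and Epcam, which other epithelia of the embryo and trophoblast also express, and after the length and GC adjustment 5 were higher and 1 lower.

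The genes of the pluripotent epiblast were lower as a group. Of 21 genes 14 were lower and 3 higher, with a median of -1.59. Utf1 (chromosome 7, 139943789 to 139945112, plus strand, GRCm38), a chromatin factor of pluripotent cells, had 1778 and 62 reads, a log2 change of -4.84 (-5.28 to -4.52). Pou5f1, the core pluripotency factor, had 3790 and 693 reads (-2.49), Nanog 278 and 91 (-1.63) and Fgf5, the marker of the primed epiblast, 184 and 32 (-2.49). Pou5f1 was still well read at E8.5. Sox2 (607 and 1322, 1.07) and Foxd3 (1.48), which neural plate and neural crest also use, and Nr5a2 (6 and 26, 1.75) were the higher members. Sall4 (-0.59) and Lin28a (0.41) were abundant at both stages and between the thresholds.

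Primitive streak genes were lower in 8 of 17 cases and higher in 1, with a median of -0.73 that moved to -0.36 after the length and GC adjustment. Lefty2, a Nodal antagonist of nascent mesoderm, had 1144 and 20 reads (-5.74, -6.60 to -5.25), Eomes 1333 and 64 (-4.38) and Mesp1, a gene of the earliest mesoderm, 570 and 52 (-3.45). T, the brachyury gene, was lower but still read at E8.5, with 3864 and 934 (-2.09). The other 8 genes were between the thresholds. Among them were Tbx6 (-0.73), Fgf8 (0.60) and Wnt3a (0.38), which the tail bud keeps in use, and also Snai1 (-0.25) and Lhx1 (-0.59). Eomes is also a gene of the extraembryonic ectoderm, and in whole embryos its lower level cannot be assigned to either tissue.

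Of 10 kept germ cell genes 3 were higher and 4 lower, with a median of 0.40. The germ cell markers Dppa3 and Nanos3 had at most 1 read in each library. Tfap2c, which trophoblast also expresses, had 879 and 123 reads (-2.86), and Kit, a receptor gene of germ and blood cells, 278 and 920 (1.67). Definitive and gut endoderm genes were lower in 6 of 20 cases and higher in 3, with a median of -0.71. After the length and GC adjustment the balance of calls turned, with 5 higher, 3 lower and a median of -0.44. Cer1 (835 and 135, -2.66) and Trh (1003 and 240, -2.10), genes of the early anterior and definitive endoderm, were lower. Foxa3 was lower too (216 and 78, -1.49), as were Epcam, Cldn6 and Krt19, the epithelial genes also counted under surface ectoderm. Nkx2-3, a gene of the gut tube wall and pharynx, was higher (1 and 32, 3.40). The other higher members were Prrx2 (43 and 335, 2.85), which is also on the lateral plate list, and Shh, which is also on the notochord list. Calls of genes shared with other tissues cannot be assigned to endoderm.

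**Figure D4:**
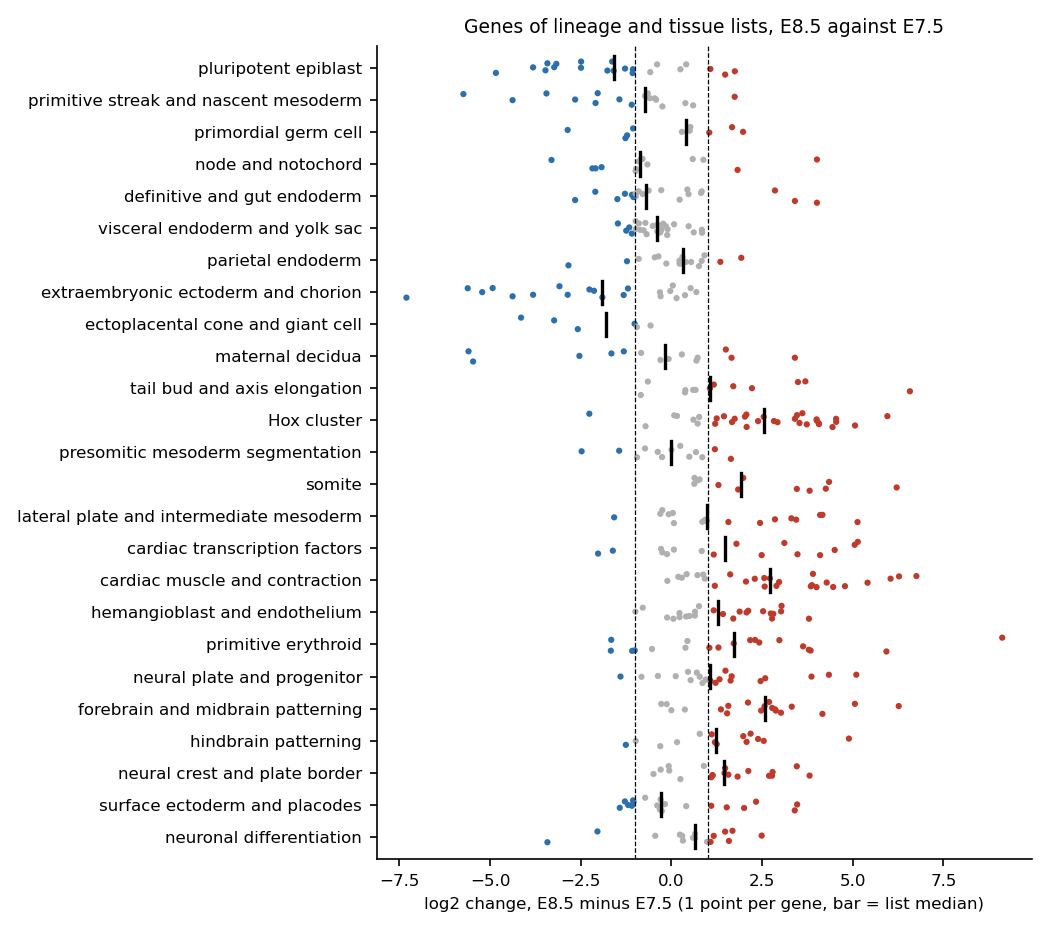
Log2 change from E7.5 to E8.5 (horizontal axis) of the kept genes of 25 lineage and tissue lists (rows), 1 point per gene, with black bars at list medians and dashed lines at -1 and 1. The Hox, contractile and forebrain lists have medians above 2.5, and the epiblast, chorion and ectoplacental cone lists have medians below -1.5.

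The lists of extraembryonic tissues differed in the size of the change. Extraembryonic tissue may have been taken from the E8.5 embryos for genotyping, and the part of this in the values below was not tested. The extraembryonic ectoderm and chorion list, the stem cell compartment of the trophoblast, was lower in 13 of 21 genes and higher in none, with a median of -1.91. Elf5 (chromosome 2, 103411688 to 103450989, plus strand, GRCm38), the factor that fixes trophoblast fate, had the lowest change of any gene with at least 100 reads, with 795 and 3 reads (-7.31, -10.38 to -6.54). Bmp8b, a signal from this tissue to the epiblast, had 340 and 5 reads (-5.62), Wnt7b 762 and 19 (-5.22) and Ascl2 358 and 10 (-4.93). The ectoplacental cone and giant cell list was hardly represented, with 6 of 22 genes kept, 4 of them lower and none higher. Tpbpa and Tpbpb, which define the cone, were at 0 reads in both libraries, and Prl3d1, a giant cell hormone gene, had 27 and 1 reads.

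Markers of the uterus were mixed. Of 14 kept maternal decidua genes 5 were lower and 3 higher, with a median of -0.19, and their summed level was 240.1 CPM at E7.5 and 77.2 at E8.5. Prl8a2, a hormone gene of decidual cells, had 1318 and 26 reads (-5.60) and Prl3c1 135 and 1 (-5.47). Des, the desmin gene, which embryonic muscle also expresses, had 792 and 139 (-2.54), and the difference of the sums lay mostly in Prl8a2 and Des. The higher ones were Lum with 1 and 32 reads, Igf1 with 28 and 96 and C3 with 52 and 156. Uterine natural killer cell genes were at 3.87 and 0.570 CPM in sum, with 1 of 13 kept (Gzmf, 13 and 1 reads), and Klrd1 and Ncr1 at 0 in both. The tissue these reads came from, and the part of maternal RNA in the lower genes at E8.5, were not tested.

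Visceral endoderm and yolk sac genes, by contrast, were highly read at both stages. None of 27 kept genes was higher and 4 were lower, with a median of -0.39, and no gene was past either threshold after the adjustment. Their summed level was 12803 and 11652 CPM. The lower ones were the apolipoprotein genes Apoa4 (-1.48) and Apoe (23685 and 10308 reads, -1.25), Cited1 (-1.16) and Amn (-1.09), whose product takes up protein with cubilin. Apob, of lipoprotein assembly, had 20617 and 38222 reads (0.84), and Afp, the alpha-fetoprotein gene, 4012 and 4355 (0.07). Alb, the gene of serum albumin, was at 0 reads. In the parietal endoderm list 2 of 17 genes were higher and 2 lower, with a median of 0.30. These counts are near the shares among all kept genes, 12.3% higher and 7.59% lower. Its basement membrane genes were between the thresholds, with Lama1 at 0.23 and Col4a1 at -0.14. Plat (55 and 222, 1.93) and Thbd (20 and 56, 1.35) were higher, while Srgn (124 and 16, -2.84) and Pth1r (1558 and 687, -1.23) were lower.

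Among signaling pathways the Hedgehog list had the highest median. Of 16 kept genes 10 were higher and none lower, with a median of 1.42. Besides the ligand Shh, the receptor and target Ptch1 had 582 and 2765 reads (2.20, 2.07 to 2.33), the target and effector Gli1 109 and 583 (2.35) and the antagonist and target Hhip 15 and 116 (2.74). The other ligand Ihh, which the visceral endoderm makes, had 430 and 223 reads (-0.99). In the retinoic acid pathway 7 of 17 kept genes were higher and none lower, with a median of 0.57. With the synthesis enzyme gene Aldh1a2, the receptor gene Rarb, itself a retinoic acid target, was higher (21 and 296, 3.64), as were the binding protein genes Crabp1 (2.12) and Crabp2 (2.54). The degrading enzyme genes diverged, with Cyp26a1 at 996 and 572 reads (-0.84) and Cyp26c1 higher as given above.

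Nodal signaling genes were lower in 5 of 15 kept cases and higher in 1, with a median of -0.21, but 4 were higher and 4 lower after the length and GC adjustment. The ligand gene Nodal had 50 and 23 reads (-1.10), the co-receptor gene Tdgf1 300 and 31 (-3.23) and the convertase gene Pcsk6 372 and 101 (-1.91). Lefty1, the midline antagonist, was the higher gene (1 and 14, 2.33), opposite to Lefty2. The receptor genes Acvr2a (0.89) and Acvr2b (0.81) were between the thresholds.

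The BMP list had 4 of 25 genes higher and 2 lower, with a median of 0.09. These counts are near the shares among all kept genes, 12.3% higher and 7.59% lower. Direct targets of the pathway were nearly level, with Id1 at 1075 and 1054 reads (-0.08), Id2 at -0.31, Id3 at 0.12, Msx1 at -0.08 and Msx2 at -0.06. So were the ligands Bmp4 (472 and 501, 0.04) and Bmp2 (-0.15). Among antagonists Grem1 was higher (0 and 45 reads, at least 14.5-fold), Chrd was lower and Nog had 50 and 97 reads (0.88).

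Of 33 Wnt pathway genes 6 were higher and 4 lower, with a median of 0.32. The ligands moved apart, with Wnt5a (280 and 948, 1.70) and Wnt8a (174 and 432, 1.25) higher and Wnt3, of the streak, lower (124 and 46, -1.44). The targets Axin2 (0.32) and Lef1 (0.10) were between the thresholds. In the FGF pathway 4 of 22 genes were higher and 2 lower, with a median of 0.41. Its feedback genes Spry2 (-0.04) and Dusp6 (0.39) were between the thresholds. The Wnt and FGF counts before adjustment are not far above the shares among all kept genes, 12.3% higher and 7.59% lower. After the length and GC adjustment 9 Wnt genes were higher and 4 lower, and 6 FGF genes were higher and 2 lower. These adjusted counts of higher genes lie farther above the adjusted count among all genes, 1358 of 13490. In the Notch pathway 5 of 19 genes were higher and 2 lower, with a median of 0.53. Dll4, the ligand of arterial endothelium, had 6 and 119 reads (3.85, 3.10 to 5.74) and Hey2 39 and 148 (1.82).

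**Figure D5:**
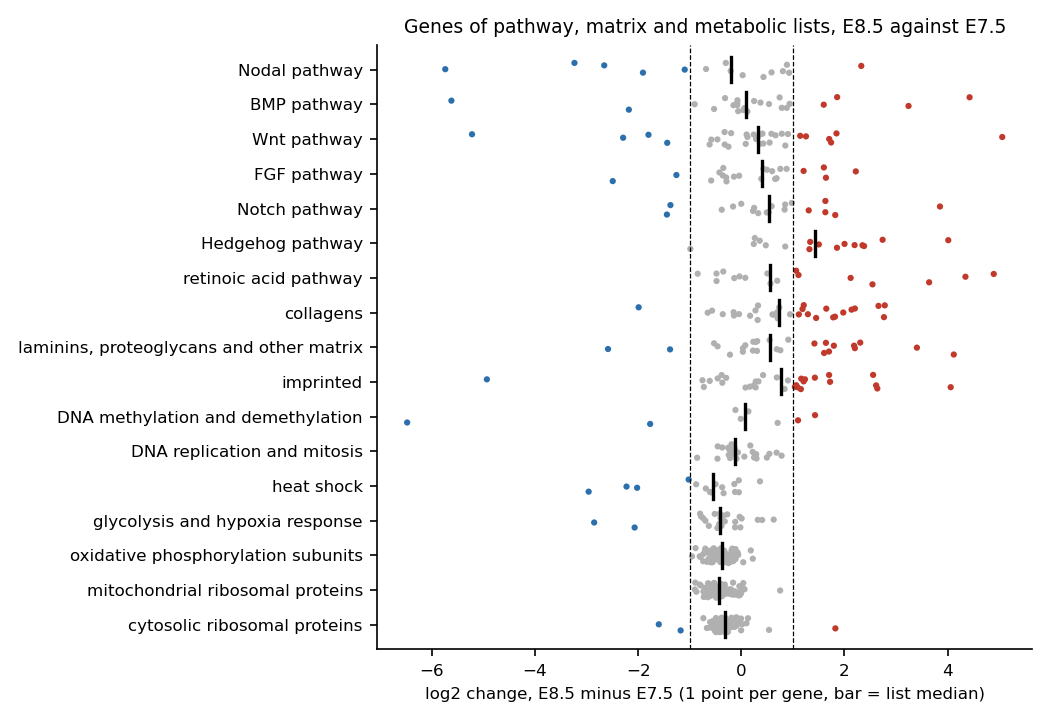
Log2 change from E7.5 to E8.5 (horizontal axis) of the kept genes of 17 pathway, matrix and metabolic lists (rows), 1 point per gene, with black bars at list medians and dashed lines at -1 and 1. The Hedgehog list has the highest median, 1.42, and the ribosomal and oxidative phosphorylation lists form narrow groups just below 0.

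Many mesenchymal and matrix genes were higher. On the epithelial to mesenchymal transition list 8 of 17 genes were higher and 2 lower, with a median of 0.94. The lower ones were the epithelial adhesion genes Cdh1 (5700 and 2828 reads, -1.06) and Epcam (2306 and 1152, -1.05), and higher ones included Zeb1 (56 and 429, 2.84) and Twist1 (227 and 701, 1.57). Snai1, which drives the transition at the streak, had 541 and 470 (-0.25). Of 31 kept collagen genes 14 were higher and 1 lower, with a median of 0.74. The fibrillar genes Col1a2 (209 and 748, 1.78) and Col2a1 (288 and 1317, 2.14) were higher, as were Col4a5 and Col4a6 (2.66 and 2.77), while the common basement membrane gene Col4a1 was not. Of 27 other matrix genes 10 were higher and 2 lower, with a median of 0.55. Vcan, the large proteoglycan of the cardiac jelly and of mesenchyme, had 253 and 4580 reads (4.12, 3.95 to 4.32).

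Genes that maintain or remove DNA methylation were split. Dnmt3l, the cofactor of the de novo enzymes, went from 618 to 5 reads (-6.48, -8.62 to -5.77) and Dnmt3b from 18206 to 5529 (-1.77, -1.81 to -1.72). Dnmt3a (-0.11) and the maintenance genes Dnmt1 (0.14) and Uhrf1 (-0.01) were nearly level. Tet2 (96 and 271, 1.43) and Tet3 (839 and 1861, 1.10), which oxidize methylcytosine, were higher, so that 2 of 8 kept genes were higher and 2 lower with a median of 0.06. After the adjustment no gene of the list was higher. Dnmt3l is also expressed in trophoblast.

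Of 32 kept imprinted genes 14 were higher and 1 lower, with a median of 0.76. After the length and GC adjustment 11 were higher and 2 lower, with a median of 0.43. Mest, a mesoderm gene expressed from the paternal allele, had 2776 and 16875 reads (2.56, 2.50 to 2.62) and the third highest gain in CPM of all genes. Plagl1, a paternally expressed regulator of other imprinted genes, had 33 and 603 (4.06), and Igf2 13186 and 25505 (0.90). H19, a maternally expressed RNA next to Igf2, had 69631 and 52381 (-0.46). The lower gene was Ascl2, a trophoblast regulator. On the list of oncofetal and let-7 axis genes 4 of 12 were higher and none lower (median 0.36). These were Lin28b (746 and 1992, 1.37), Hmga2 (2625 and 6678, 1.30), Trim71 (1.07) and Zcchc11 (1.22). After the adjustment 1 of the 11 genes with a length and GC value was higher.

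Housekeeping and metabolic lists stayed mostly between the thresholds. None of 25 DNA replication and mitosis genes was higher or lower, with a median of -0.12. Ribosomal protein genes had a median of -0.32, with 1 of 80 kept genes higher (Rpl29, 265 and 975 reads) and 2 lower, mitochondrial ribosomal protein genes -0.43 with none of 77 past a threshold, and oxidative phosphorylation subunits -0.38 with none of 73. After the length and GC adjustment the medians were -0.011, -0.21 and -0.084, and 5 mitochondrial ribosomal protein genes and 2 oxidative phosphorylation genes were lower. These proteins are encoded by short transcripts, with list medians of 1100, 1849 and 1186 bases. Copies of ribosomal protein genes share reads, so single values such as that of Rpl29 are uncertain.

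Glycolysis and hypoxia response genes had a median of -0.40 (-0.16 adjusted), with none of 25 kept genes higher and 2 lower. Both are hypoxia-response genes, Adm (111 and 14, -2.85) and Ndrg1 (1126 and 276, -2.07). The glucose transporter gene Slc2a3 was abundant at both stages (39423 and 50852, 0.32). Of 21 kept threonine, glycine and folate genes 2 were lower and none higher, with a median of -0.56 (-0.24 adjusted), and of 21 cholesterol genes 3 were higher (1 adjusted) and none lower, with a median of 0.18. Heat shock genes were lower in 4 of 16 cases and higher in none, with a median of -0.54 (-0.46 adjusted). The inducible Hspa1a (52 and 5, -2.96) and Hspa1b (132 and 32, -2.02), which are near-identical copies, were among them, as was Hsp90aa1 (37823 and 19269, -1.02). Immediate early genes were lower in 3 of 14 kept cases and higher in 1, with a median of -0.66. None of them had its whole counting interval below -1, and none was lower after the adjustment (median -0.32). Of 17 kept genes of the CDK inhibitor and p53 target list 3 were higher and 2 lower, with a median of -0.18, and Cdkn1a had 269 and 126 reads (-1.13). Of 68 replication-dependent histone genes, whose transcripts carry no poly(A) tail, 7 passed the read minimum and none was past a threshold.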

How the data were processed

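Poly(A) RNA of whole embryos was sequenced from stranded libraries. The values the authors deposited are raw read counts for each gene and were not normalized. By the submitters' processing notes and the study's methods, reads were trimmed with Cutadapt 2.8, checked with FastQC 0.11.7, aligned to mm10 (GRCm38) with HISAT2 2.1.0, handled with SAMtools 1.9 and counted by strand with featureCounts 2.0.0.

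Counts of all 4 libraries were scaled together with TMM factors (edgeR 4.0.16, R 4.3.3), which trim extreme genes before libraries are compared. Genes with at least 10 reads in either wild-type library were kept, and log2 CPM used a prior count of 2. With 1 library per stage no test was run. Intervals are exact 95% binomial intervals of the reads scaled by library size, without the prior count, and a fold against 0 reads was taken against a floor of 3 reads. Molecules were not tagged, so several reads may stem from 1 molecule, and both cover counting error only. The calculation was checked on simulated counts with counting error only and the true library scaling supplied. The check therefore did not cover the TMM factors or other differences between libraries.

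The 53 gene lists were compiled from general knowledge, and members and lists were chosen with earlier results of these data known. They named 1176 genes in the table, of which 1007 were kept, and 1 listed gene (Ahsp) was not matched. Besides list members, genes named are the 15 highest and 15 lowest by log2 change with at least 100 reads, the 10 largest gains and losses in CPM, and groups of at least 8 kept genes whose symbols share their opening letters. Positions came from GENCODE M21, with 95.6% of genes matched, promoters from RefSeq (GRCm38.p6), and lengths and GC content from the longest GENCODE transcript, with 96.4% of kept genes matched. For the adjustment, the median log2 change of a gene's bin, among 5 bins of length by 5 of GC content, was subtracted. Alternatives were DESeq2 1.42.0 size factors, plain CPM, other TMM sets, prior counts, read minimums and thresholds. Python 3.11.15 with matplotlib 3.10.9 made the figures.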

Additional observations from a re-analysis of the deposited data

How the results depend on the processing

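Counts of 1720 higher and 1062 lower genes stayed between 1670 and 1791 and between 1061 and 1118 under DESeq2 size factors, plain CPM, TMM over the wild-type libraries alone, a prior count of 0.5 and without either Ddx6 KO library, the last giving 1719 to 1727 higher genes. With no filter they were 2037 and 1410, and after the length and GC adjustment 1358 and 856. A minimum of 50 reads left 1209 higher and 610 lower genes, a threshold of 2 left 499 and 285, and whole intervals past the threshold 939 and 476, since each of these asks more of a gene. With a minimum of 50 reads the list medians were 3.46 for somite, 0.87 for primitive erythroid, 0.38 for megakaryocyte and macrophage (in place of -1.02, the sign reversed), -0.95 for ectoplacental cone and giant cell and 0.17 for FGF pathway, and no natural killer gene was left. Without a filter they were 2.07 for Hox cluster, -1.001 for natural killer and 0.14 for DNA methylation. For each list a range was taken from the median of its members' lower interval bounds to the median of their upper bounds. This range is not a counting interval of the list median. The length and GC adjustment, added after the data were seen, moved the medians of primitive streak (-0.36), germ cell (0.76), surface ectoderm (0.068), gut endoderm (-0.44), parietal endoderm (0.15), BMP (0.35), DNA methylation (-0.067), DNA replication (0.0071), heat shock (-0.46), glycolysis (-0.16), threonine, glycine and folate (-0.24), cytosolic ribosomal (-0.011), mitochondrial ribosomal (-0.21), oxidative phosphorylation (-0.084) and sex-linked genes (0.29) beyond these ranges. It would also remove a developmental trend with length, and the cause was not tested. No paired analysis was possible because each stage had 1 library. Depth limits genes of low level, since a change from 0 reads is bounded only by the floor of 3 reads, 0.252 CPM at E7.5 and 0.244 at E8.5.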

Other observations

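Some of the genes with the most extreme changes belong to none of the lists. Arg1, which encodes the urea cycle enzyme arginase, had 3 reads at E7.5 and 421 at E8.5, a log2 change of 6.32 (5.53 to 9.37). The noncoding RNA Hoxaas3 (0 and 148 reads, at least 47.7-fold) and the forkhead factor gene Foxd1 (0 and 130, at least 41.9-fold) went from 0 reads to more than 100. Popdc2, a membrane protein gene of striated muscle, had 3 and 205 reads (5.29). Among the lowest were Sohlh2, a germ cell transcription factor gene (109 and 0, at least 37.5-fold lower), Cyp11a1, the first enzyme of steroid hormone synthesis (213 and 5, -4.95), and the nuclear receptor gene Nr0b1 of early embryonic cells (153 and 3, -4.95). Dmkn (158 and 2, -5.30), Nccrp1 (189 and 4, -4.99) and AU018091 (405 and 9, -5.23) were likewise low at E8.5. By CPM, high gains outside the lists were those of Nedd4, a ubiquitin ligase gene (14686 and 26295 reads, 0.79), Prtg, an adhesion receptor gene of the neural plate and mesoderm (4367 and 15396, 1.77), and the translation factor gene Eif4g2 (18411 and 29102, 0.61). High losses were those of Fth1, the ferritin heavy chain gene (24400 and 11773, -1.10), and the elongation factor gene Eef2 (57236 and 40840, -0.53).

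Genes were also grouped by the letters that open their symbol, which gave 227 groups of at least 8 kept genes. The highest median, 2.46, was that of the Nkx homeobox genes, of which 7 of 9 were higher, followed by the Hoxb and Hoxa symbols. The symbols opening with Tbx (7 of 10 higher, median 1.48) and with Sox (11 of 19 higher, 2 lower, median 1.14), which include the noncoding RNAs Tbx3os2 and Sox2ot beside the transcription factors, followed, as did the matrix proteases of the Adamts family (9 of 17 higher, 1 lower, median 1.07) and the Abca transporters (5 of 8 higher, median 1.52). The gamma protocadherins Pcdhga had 7 of 9 genes higher (median 1.73), but these genes share exons and their reads could be split among them. At the other end stood the Prl hormone genes, with 8 of 8 lower (median -2.93), and the X-linked Xlr genes, with 6 of 8 lower (median -1.23), which are near-identical copies and therefore uncertain. The Prss proteases (5 of 9 lower, 2 higher, median -1.001), Tnfrsf receptors (6 of 12 lower, 1 higher, median -0.81), annexins (3 of 10 lower, none higher, median -0.75) and cilia genes named Cfap (2 of 13 lower, none higher, median -0.67) came next, then the Pla symbols, mostly phospholipases (median -0.59) and the Aldh dehydrogenases (median -0.51). The length and GC adjustment was not made part of these medians.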
